A study of Rattus norvegicus with 18 samples.

Results

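The genes described here are the major histocompatibility complex (MHC), antigen presentation and interferon genes of rat thyroid cells. They were taken by name from the probe sets annotated with exactly 1 gene symbol: every RT1 gene (the rat MHC), B2m, Cd74, Tap1, Tap2 and tapasin, and the Irf, Stat, Ifi, Ifn, Mx, Gbp, Isg and Oas families. Tapasin and Isg genes are not analysed here. This gave 43 genes out of 4736 named genes on the array, measured by 67 probe sets out of 8740 tested. Where a gene had several probe sets, the brightest over the 18 arrays stands for it, and the others are given where their call differs. By role, the 43 included 8 class I heavy chains, 3 genes of the class I light chain and peptide transporter and 10 class II genes. A further 5 were interferon regulatory factors, 6 were STAT factors and 4 were interferons and interferon receptors. The other 7 were grouped by name as interferon-induced antiviral genes, Ifitm10 among them. Whether each of these is induced by interferon was not tested.

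Messenger RNA was measured on Affymetrix arrays in 2 established rat thyroid cell lines before and after bovine thyroid-stimulating hormone (TSH), with 3 biological replicates in each of 6 groups. FRT/TSHR is a de-differentiated line whose name states that it carries the TSH receptor; these cells grew in Coon's modified F12 medium and were taken unstimulated (basal), 30 min after or 17 h after TSH was added at 1 U/L. FRTL5 is a differentiated thyrocyte line; these cells spent 5 days in the TSH-free medium 5H and were taken at the same times, with TSH at 0.1 U/L. All 6 groups spent 12 h without serum first, and none received an interferon according to the labels. Line, medium and dose differed together and cannot be told apart, no untreated group was taken at 30 min or 17 h, and the labels do not say whether FRT/TSHR is 1 clone. Values are log2 expression after the authors' RMA normalization, which places a probe set on a relative scale, so levels are compared only between groups for the same probe set.

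Every nucleated cell can present peptides from its own proteins on MHC class I, a complex of a heavy chain and the light chain beta-2-microglobulin (B2m) that is loaded with peptides pumped into the endoplasmic reticulum by the Tap1/Tap2 transporter. Class II molecules present peptides from the endosomal route, mainly on professional antigen-presenting cells, with the invariant chain Cd74 and the DM and DO proteins governing their loading. Interferons bind receptors such as Ifnar1 and Ifngr1, and the signal runs through Jak kinases to Stat2 and the Irf factors, which switch on class I, the transporter and antiviral genes. In thyroid cells class I is of interest because its level is known from earlier work to respond to TSH and cAMP, and because excess MHC on thyrocytes accompanies autoimmune thyroid disease.

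Promoters of 3 genes are shown because these genes moved together in FRTL5 cells and mark the group: a class I heavy chain, the class I light chain and an interferon regulatory factor. Each is the RefSeq sequence on GRCr8 from 250 bases before to 50 bases after the gene's start. RT1-CE16 lies at chr20:3265394-3265693 on the minus strand, B2m at chr3:129549080-129549379 on the plus strand, and Irf7 at chr1:205799974-205800273 on the minus strand. Capitals mark matches, on either strand, to an interferon-stimulated response element (GAAA, any 2 bases, GAAA), a kappa-B site (GGGNNTTCC) or the TGACG core of a cAMP response element.
RT1-CE16: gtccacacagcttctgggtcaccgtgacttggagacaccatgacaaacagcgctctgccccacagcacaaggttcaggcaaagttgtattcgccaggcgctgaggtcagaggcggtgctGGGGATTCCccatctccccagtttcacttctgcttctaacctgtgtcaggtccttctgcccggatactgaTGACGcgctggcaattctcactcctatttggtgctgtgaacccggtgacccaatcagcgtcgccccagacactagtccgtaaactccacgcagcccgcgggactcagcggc
B2m: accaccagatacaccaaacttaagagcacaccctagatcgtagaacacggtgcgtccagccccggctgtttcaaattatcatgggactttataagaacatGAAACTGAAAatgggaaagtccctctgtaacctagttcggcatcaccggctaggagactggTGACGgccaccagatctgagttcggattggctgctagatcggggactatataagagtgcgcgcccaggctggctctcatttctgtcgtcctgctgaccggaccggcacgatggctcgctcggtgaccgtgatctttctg
Irf7: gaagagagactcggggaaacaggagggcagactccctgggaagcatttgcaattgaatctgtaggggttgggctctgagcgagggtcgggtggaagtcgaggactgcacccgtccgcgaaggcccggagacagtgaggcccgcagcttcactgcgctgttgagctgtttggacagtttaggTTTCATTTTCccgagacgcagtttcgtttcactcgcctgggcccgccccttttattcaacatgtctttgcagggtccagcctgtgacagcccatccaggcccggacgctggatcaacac
The kappa-B match of RT1-CE16 began at -131 and its TGACG at -61 from the start. In B2m the interferon-stimulated response element began at -150 and TGACG at -89, and in Irf7 the interferon-stimulated response element, read from the minus strand, began at -69. The marked matches do not overlap each other. Of the 43 genes, 39 had a promoter in the table. The interferon-stimulated response element was found in 10 of these 39 and in 3.77% of all 27457 promoters, the kappa-B motif in 7 and 5.97%, TGACG in 11 and 22.0%, CCAAT in 25 and 37.7%, and the interferon-gamma activated site TTCNNNGAA in 6 and 8.68%. The Tap1, Tap2, RT1-N3, RT1-S3, Gbp2, Ifitm3, Oas1a and Oas1b windows were the other 8 with a match to the interferon-stimulated response element as written above. Only exact matches were counted, so a window without a match, such as that of RT1-CE16, can still hold a variant of the element. None of the 5 motifs was found in the window of RT1-CE12. These matches are letters in a window and were not measured as binding sites.

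Across the whole table, array medians lay between 5.47 and 5.59. The median SD within a group was 0.163 for the probe sets that stand for the 43 genes. The beta-actin probe sets set the 3 FRTL5 arrays numbered 1 apart, with a 3' minus 5' difference of 1.13 to 1.22, against -0.14 to 0.28 on the other 15 arrays, so counts in FRTL5 are also given without them. Within each line, arrays that share a replicate number deviated together, with correlations of 0.15 to 0.80 in FRTL5. Some FRTL5 arrays with different numbers also correlated, up to 0.63. The number is treated as a block where that changed a call. Thyrocyte markers (6 of 9 measured, summed level, log2) were 9.42 to 9.64 on the FRT/TSHR arrays and 11.06 to 12.34 on the FRTL5 arrays. Thyroglobulin (Tg), the prohormone made by thyrocytes, averaged 4.17 in basal FRT/TSHR cells and 11.21 in basal FRTL5 cells. No array value can be called absent, because detection above background was not measured.

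The main question was how TSH changed these genes in each line over time. In FRTL5 cells 5 of the 43 genes passed the test after 17 h of TSH, all downward (limma, adjusted p under 0.05 over all probe sets). They were 3 of the 8 class I heavy chain genes (RT1-A, RT1-CE12 and RT1-CE16), the light chain gene B2m and the interferon regulatory factor gene Irf7. Of all 4736 genes 4.12% passed, 2.26% downward and 1.86% upward. The median difference was -0.03 over the 43 genes and 0.01 over all genes, and the groups did not overlap, with the 17 h arrays lower, for 10 of the 43 and for 8.76% of all genes; they lay higher without overlap for 4 of the 43 and for 8.23% of all genes. The array plot shows these genes by sample.

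**Figure D1:**
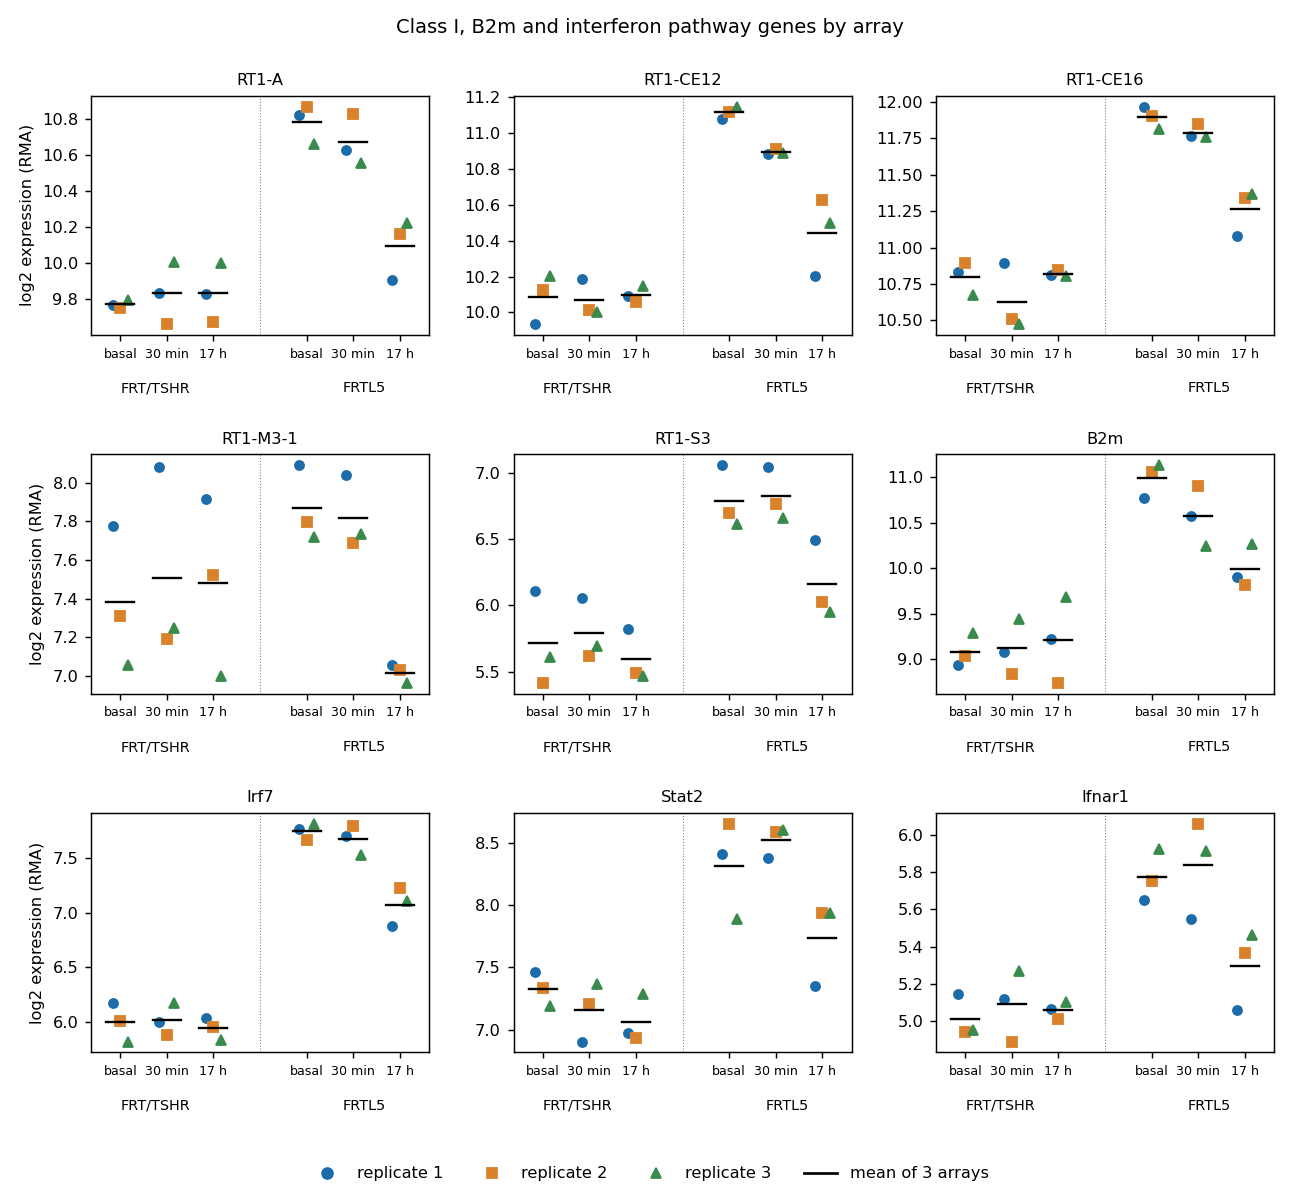
Log2 expression (RMA) of 9 genes on each of the 18 arrays; points are arrays, shaped and coloured by replicate number, and bars are means of 3 arrays, with FRT/TSHR left and FRTL5 right of the dotted line. In FRTL5 the 17 h points of RT1-A, RT1-CE12, RT1-CE16 and Irf7 lie below all basal and 30 min points, while the FRT/TSHR points of the 3 times overlap; each panel has its own vertical range.

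Among the heavy chains, RT1-A, the classical class I gene, had 10.82, 10.87 and 10.66 on the basal FRTL5 arrays, 10.63, 10.83 and 10.56 at 30 min and 9.91, 10.16 and 10.22 at 17 h. All 3 of its 17 h arrays were below all 6 others of the line. Its log2 difference at 17 h was -0.68 ± 0.12 (SE), a 1.61-fold lower level (adjusted p = 0.0046). RT1-CE12, a gene of the RT1-C/E class I region, had 11.08, 11.12 and 11.15 at basal, 10.88, 10.91 and 10.89 at 30 min and 10.20, 10.62 and 10.50 at 17 h. Its 3 groups formed 3 separate bands, and the 17 h difference of -0.67 ± 0.11 passed (adjusted p = 0.0022), while the 30 min difference of -0.22 ± 0.11 did not (95% interval -0.45 to 0.0047). RT1-CE16, from the same region, had 11.97, 11.91 and 11.81 at basal, 11.77, 11.85 and 11.76 at 30 min and 11.08, 11.34 and 11.37 at 17 h. It was 1.55-fold lower at 17 h than at basal (-0.63 ± 0.11, adjusted p = 0.0056), and again only the 17 h arrays were low. The probe sets of these 3 genes are of a type whose probes match several members of a family. The fall thus belongs to class I heavy chain RNA and cannot be assigned to a single locus. The 3 calls may read shared RNA, so counts of heavy chain genes in every comparison may include the same signal more than once. A further class I probe set, annotated to RT1-A, RT1-CE16 and RT1-A1 together and for that reason not counted, fell by 0.61 (adjusted p = 0.0077). The other probe sets annotated to the same symbols had -0.52 and 0.19 and did not pass (limma, adjusted p = 0.34 and 0.85).

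The other 5 heavy chain genes did not pass at 17 h. RT1-M3-1, whose mouse counterpart presents formylated peptides, had 7.05, 7.03 and 6.96 at 17 h, against 8.09, 7.80 and 7.72 at basal (-0.85 ± 0.25, adjusted p = 0.082). RT1-S3, a nonclassical class I gene, had 6.50, 6.03 and 5.95 at 17 h, against 7.06, 6.70 and 6.61 at basal (-0.63 ± 0.20, adjusted p = 0.11), and another of its 3 probe sets passed at -0.72 (adjusted p = 0.044). For both genes every 17 h array was below every basal array. RT1-A3, RT1-M5 and RT1-N3 lay between -0.05 and 0.11.

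B2m, without which class I does not reach the cell surface, had 10.76, 11.06 and 11.13 on the basal arrays, 10.57, 10.90 and 10.24 at 30 min and 9.90, 9.81 and 10.26 at 17 h. Its 17 h arrays were all below the basal arrays, but the lowest 30 min array was below the highest 17 h array. The 17 h difference of -0.99 ± 0.23 was the largest of the 43 genes in size, a 1.99-fold lower level (adjusted p = 0.0218). The call was lost when any of 4 arrays was left out: the adjusted p was 0.081 without basal replicate 2, 0.081 without basal replicate 3, 0.068 without 17 h replicate 1 and 0.10 without 17 h replicate 2. The transporter genes did not pass, with differences of 0.34 ± 0.17 for Tap1 (adjusted p = 0.45) and -0.10 ± 0.33 for Tap2. The SE of Tap2 is too wide to tell a fall from no change, and the difference of either gene from B2m was not tested.

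Irf7, a transcription factor that amplifies type I interferon production, had 7.77, 7.66 and 7.81 at basal, 7.70, 7.79 and 7.53 at 30 min and 6.88, 7.23 and 7.11 at 17 h. Every 17 h array was below every array of the earlier times. The difference from basal was -0.68 ± 0.12, a 1.60-fold lower level (adjusted p = 0.0051). The other Irf7 probe set had -0.50 ± 0.21 and did not pass (adjusted p = 0.27). Irf1, which binds the interferon-stimulated response element, had 8.61, 7.97 and 8.18 at 17 h, against 9.26, 8.79 and 8.63 at basal, and its difference of -0.64 ± 0.28 did not pass (adjusted p = 0.33). Irf3, a partner of Irf7 in interferon induction, differed between its probe sets: the representative had -0.27 ± 0.19 and did not pass, and the other fell by 0.60 (adjusted p = 0.033). Irf8 and Irf2 had differences of 0.18 and -0.03.

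The class II genes, STAT genes, interferons, receptors and antiviral genes had 0 calls at 17 h against basal in limma. Their nearest to the threshold were Ifnar1, a chain of the type I interferon receptor (-0.48 ± 0.14, adjusted p = 0.087), Stat2, a transcription factor of type I interferon signalling (-0.58 ± 0.20, adjusted p = 0.15), RT1-DMb, a chain of the peptide-exchange factor DM (-0.68 ± 0.23, adjusted p = 0.16), and Ifitm3, a membrane protein that restricts virus entry (0.50 ± 0.19, adjusted p = 0.21). The interferon genes Ifnb1 and Ifng differed by -0.01 and 0.03, and the antiviral genes Mx1, Oas1a and Oas1b by -0.02, 0.15 and 0.06. The antiviral genes had a median of 0.06, against -0.63 for the 8 heavy chains. The plot of all 43 differences sets the lines side by side.

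**Figure D2:**
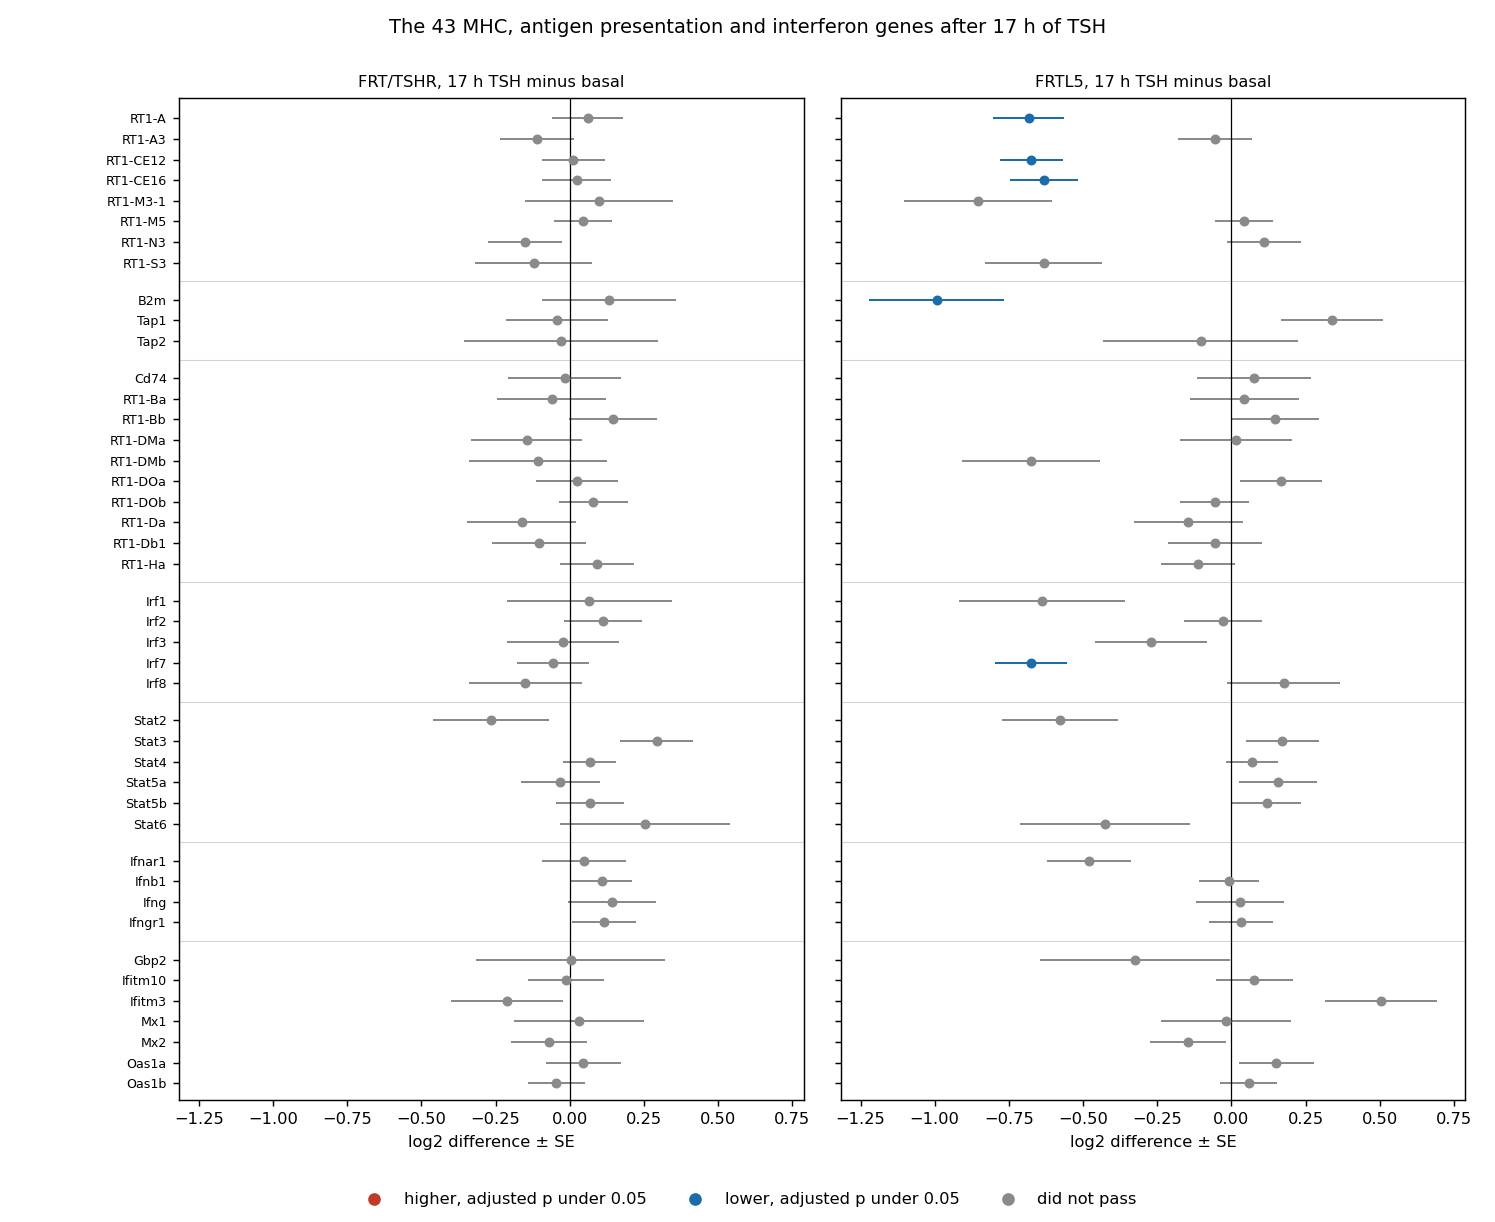
Log2 difference ± SE, 17 h of TSH minus basal, of the 43 genes in FRT/TSHR (left) and FRTL5 (right), on 1 shared axis and grouped by role from class I heavy chains at the top to antiviral genes at the bottom. In FRTL5 5 genes fell (blue), from -0.99 for B2m to -0.63 for RT1-CE16, and 0 genes of either line rose; in FRT/TSHR the differences lay between -0.27 and 0.29.

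With the replicate number as a block within the line, 10 of the 43 passed at 17 h: 9 fell and Ifitm3 rose, against 6.57% of all genes downward and 4.29% upward. The 4 added downward calls were RT1-M3-1 (adjusted p = 0.00041), RT1-S3 (0.00054), Ifnar1 (0.0076) and RT1-DMb (0.012), which brought the heavy chains that fell to 5 of 8. Without the 3 FRTL5 arrays numbered 1, RT1-CE12 alone passed (-0.57, adjusted p = 0.020), and RT1-A, Irf7, RT1-CE16 and B2m had differences of -0.57, -0.57, -0.50 and -1.06 with adjusted p between 0.058 and 0.077. Summed leukocyte markers (11 of 18 measured) were 8.64 to 8.79 on the 17 h arrays and 8.72 to 8.80 on the basal arrays of FRTL5. Less RNA per cell and fewer cells carrying the RNA cannot be told apart in these bulk samples.

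The falls were called at 17 h and not at 30 min. At 30 min of TSH 0 of the 43 genes passed in FRTL5 (limma, smallest adjusted p = 0.9995; 0 had an unadjusted p under 0.05, and 0 passed with the block), against 0.169% of all genes (0.38% with the block). Besides RT1-CE12, the nearest were Ifitm10 (0.26 ± 0.13), RT1-M5 (-0.20 ± 0.10) and B2m (-0.41 ± 0.23, 95% interval -0.90 to 0.07). At 17 h against 30 min 7 of the 43 passed, 6 downward and 1 upward, against 2.62% and 2.15% of all genes (4.77% together). RT1-A, RT1-CE12, RT1-CE16 and Irf7 fell by 0.57, 0.45, 0.53 and 0.60. This comparison shares its 17 h arrays with the one against basal, so it is not separate evidence for these 4 genes. The other Irf7 probe set did not pass here either (-0.32, adjusted p = 0.65). Other probe sets of Irf3 (-0.59, adjusted p = 0.032) and RT1-S3 (-0.70, adjusted p = 0.048) passed while their representatives did not.

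Stat2, Ifnar1 and Ifitm3 passed in this comparison and not against basal. Stat2 had 7.35, 7.93 and 7.94 at 17 h, against 8.38, 8.59 and 8.60 at 30 min (-0.79 ± 0.20, adjusted p = 0.032). Ifnar1 had 5.06, 5.37 and 5.46 at 17 h, against 5.55, 6.06 and 5.91 at 30 min (-0.54 ± 0.14, adjusted p = 0.042). Ifitm3 had 9.93, 9.90 and 10.01 at 17 h, against 9.13, 9.49 and 9.08 at 30 min (0.71 ± 0.19, adjusted p = 0.044). In each of the 3 genes the groups did not overlap. Such a gap was found, with the 17 h arrays lower, for 9 of the 43 and 9.73% of all genes, and with them higher for 4 and 8.66%. Leaving out single arrays moved the count: 0 genes passed without 30 min replicate 2 (adjusted p 0.054 to 0.21 for the 7), 3 without 30 min replicate 3, 2 without 17 h replicate 1 and 4 without 17 h replicate 3, and only Ifnar1 passed without the FRTL5 arrays numbered 1. Ifitm3 lost its call in all 6 of the fits without a single array, and Ifnar1 and RT1-CE12 in 5. With the block 10 passed, B2m, RT1-M3-1 and RT1-S3 joining the 6 downward, against 6.42% of all genes downward and 4.96% upward.

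In FRT/TSHR cells 0 of the 43 genes passed after 30 min or 17 h of TSH or between these times (limma; 2, 1 and 2 had an unadjusted p under 0.05, and 0 passed with the block), and 0% of all genes passed. After 17 h RT1-A had 9.83, 9.67 and 10.00, against 9.77, 9.76 and 9.80 at basal. RT1-CE12 had 10.09, 10.06 and 10.15, against 9.94, 10.13 and 10.20, and RT1-CE16 had 10.81, 10.85 and 10.81, against 10.83, 10.89 and 10.67 at basal. The arrays of the 2 times overlapped for all 3 genes. The 95% intervals of the differences were -0.20 to 0.32, -0.21 to 0.24 and -0.22 to 0.27. They do not reach the mean falls of 0.63 to 0.68 in FRTL5, but take no account of the error of those falls. The direct test between the lines, given below, passed without the block for RT1-CE12 and not for RT1-A or RT1-CE16. B2m had 9.22, 8.74 and 9.69 at 17 h, against 8.94, 9.03 and 9.29 at basal (interval -0.35 to 0.61), and Irf7 had 6.04, 5.96 and 5.84, against 6.17, 6.01 and 5.82 (interval -0.31 to 0.20). The nearest to the threshold at 17 h were Stat3, a mediator of Il6-family signals (0.29 ± 0.12), and Stat2 (-0.27 ± 0.20).

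The difference between the lines in the 17 h effect was tested directly, as the FRT/TSHR effect minus the FRTL5 effect. It passed for 1 of the 43 genes, RT1-CE12, at 0.69 ± 0.15 (adjusted p = 0.049), against 0.338% of all genes upward and 0.866% in all. RT1-A (0.74 ± 0.17, adjusted p = 0.055), RT1-CE16 (0.65 ± 0.16, 0.078), Irf7 (0.62 ± 0.17, 0.12) and B2m (1.13 ± 0.32, 0.14) did not pass. With the block 6 passed, all upward, against 2.41% of all genes upward and 2.17% downward (4.58% together): RT1-A, RT1-CE12, RT1-CE16, RT1-M3-1, RT1-S3 and B2m (adjusted p 0.0060 to 0.033). Without the FRTL5 arrays numbered 1, 0 passed, and RT1-CE12 had 0.58 (adjusted p = 0.11). The 30 min effect differed between the lines for 0 of the 43 genes (1 at an unadjusted p under 0.05, and 0 with the block), against 0.0422% of all genes (0.106% with the block).

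Unstimulated cells of the 2 lines were compared to ask how far this machinery differs before TSH. Of the 43 genes 16 passed, 13 lower and 3 higher in FRT/TSHR, against 13.8% of all genes lower and 14.8% higher (28.5% together). Interferon regulatory factors, class I heavy chains and B2m were among the genes lower in FRT/TSHR. The 3 that were higher (Gbp2, Ifitm10 and Oas1a) were all from the 7 genes grouped as interferon-induced antiviral, a label not tested here. Of these 7, 4 had a higher and 3 a lower mean in FRT/TSHR, with differences from -0.48 to 1.49. The median difference was -0.17 over the 43 and -0.04 over all genes. The arrays of the lines did not overlap, with FRT/TSHR lower, for 16 of the 43 and 20.7% of all genes, and with it higher for 4 and 19% of all genes. Without the FRTL5 arrays numbered 1 the count of calls was 15.

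**Figure D3:**
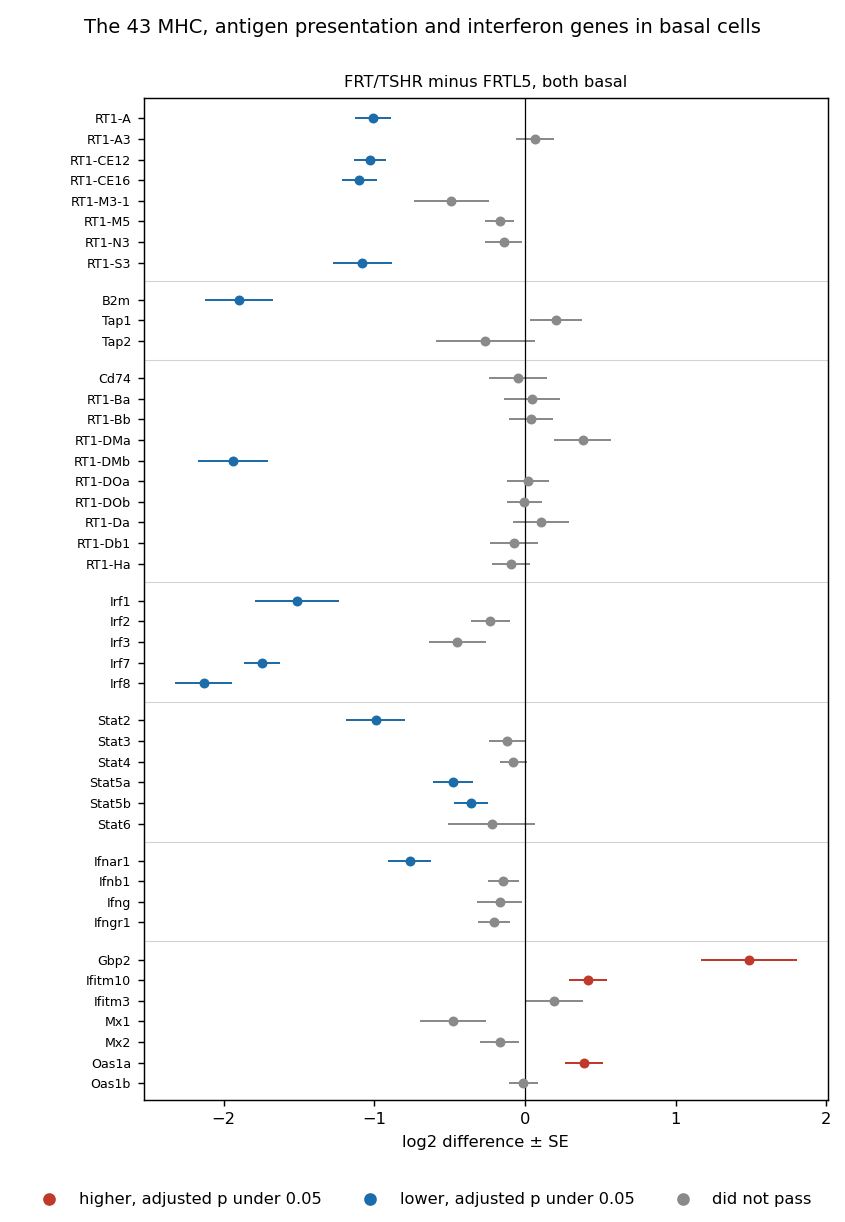
Log2 difference ± SE, basal FRT/TSHR minus basal FRTL5, of the 43 genes in the same order of roles. Of these, 13 passed as lower in FRT/TSHR (blue), down to -2.13 for Irf8, and 3 as higher (red), up to 1.49 for Gbp2; the other 27 (grey) did not pass.

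By role, 3 of the 5 interferon regulatory factors were lower in FRT/TSHR by their representative probe sets. Irf8, a factor best known from myeloid cells, had 5.08, 5.17 and 5.00 in FRT/TSHR, against 7.03, 7.70 and 6.93 in FRTL5 (-2.13 ± 0.19, adjusted p = 3.3e-07). Irf7 had 6.17, 6.01 and 5.82 in FRT/TSHR, against 7.77, 7.66 and 7.81 in FRTL5, a 3.35-fold lower level (-1.75 ± 0.12, adjusted p = 1.5e-08). Irf1 had 7.24, 7.50 and 7.40 in FRT/TSHR, against 9.26, 8.79 and 8.63 in FRTL5 (-1.51 ± 0.28, adjusted p = 0.00058). The arrays of the lines did not overlap for any of the 3 factors. The representative probe set of Irf3 had -0.45 ± 0.19 and did not pass (adjusted p = 0.10), while its other probe set was lower in FRT/TSHR (-0.93 ± 0.15, adjusted p = 0.00013).

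Of the class I heavy chains 4 of 8 were lower in FRT/TSHR. RT1-A had 9.77, 9.76 and 9.80 in FRT/TSHR, against 10.82, 10.87 and 10.66 in FRTL5 (-1.01 ± 0.12, adjusted p = 7.9e-06). RT1-CE12 and RT1-CE16, whose basal arrays are given above, were lower by -1.03 ± 0.11 and -1.10 ± 0.11 (adjusted p = 1.7e-06 and 1.8e-06). RT1-S3 had 6.11, 5.42 and 5.61 in FRT/TSHR, against 7.06, 6.70 and 6.61 in FRTL5 (-1.08 ± 0.20, adjusted p = 0.000555). B2m had 8.94, 9.03 and 9.29 in FRT/TSHR, against 10.76, 11.06 and 11.13 in FRTL5, a 3.73-fold lower level (-1.90 ± 0.23, adjusted p = 8.0e-06). Heavy and light chain were both lower, each without overlap. The FRTL5 arrays at 17 h of TSH still lay above all 9 FRT/TSHR arrays for RT1-CE16 (11.08 to 11.37 in FRTL5, 10.47 to 10.89 in FRT/TSHR), whereas for RT1-A the ranges of 9.91 to 10.22 in FRTL5 and 9.66 to 10.01 in FRT/TSHR overlapped.

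Among class II genes RT1-DMb was lower in FRT/TSHR, with 7.41, 6.47 and 6.89, against 8.97, 8.88 and 8.74 in FRTL5 (-1.94 ± 0.23, adjusted p = 8.1e-06), and both of its other probe sets passed in the same direction. Its partner RT1-DMa had 0.38 ± 0.19 and did not pass with its representative probe set, while its other probe set was higher in FRT/TSHR by 0.61 (adjusted p = 0.0073). The other 8 class II genes did not pass. In the signalling genes, Ifnar1 (-0.76 ± 0.14), Stat2 (-0.99 ± 0.20), Stat5a (-0.48 ± 0.13) and Stat5b (-0.36 ± 0.12), the last 2 known from prolactin and growth hormone signalling, were lower in FRT/TSHR. The other Stat5a probe set had -0.07 and did not pass (adjusted p = 0.72). Of Stat3 the representative had -0.12 and did not pass, and the other probe set was lower in FRT/TSHR (-0.37, adjusted p = 0.024).

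Gbp2, an interferon-induced GTPase that acts on pathogen compartments, was the gene with the largest higher value in FRT/TSHR. It had 5.60, 4.91 and 5.71 in FRT/TSHR, against 4.23, 3.70 and 3.84 in FRTL5 (1.49 ± 0.32, adjusted p = 0.0021). Ifitm10, a member of the Ifitm family, and Oas1a, an oligoadenylate synthetase that senses double-stranded RNA, were higher by 0.42 ± 0.13 and 0.39 ± 0.13 (adjusted p = 0.023 and 0.031). Of the 16 calls, 4 were lost when a basal array was left out, with adjusted p between 0.056 and 0.14: Oas1a without FRT/TSHR replicate 1 or 2 or FRTL5 replicate 1 or 2, Ifitm10 without FRT/TSHR replicate 3 or FRTL5 replicate 1 or 3, Stat5b without FRT/TSHR replicate 1 or 3 or FRTL5 replicate 2 or 3, and Stat5a without FRTL5 replicate 1. Summed leukocyte markers were 8.86 to 8.99 in basal FRT/TSHR and 8.72 to 8.80 in basal FRTL5 cells. The single leukocyte markers did not move together: Cd79b was higher (1.15) and Lyz2 lower (-0.83) in FRT/TSHR, and 9 of the 11 did not pass. Summed fibroblast markers (7 of 7) were 8.19 to 8.30 in basal FRT/TSHR and 8.29 to 8.38 in basal FRTL5 cells. The part of leukocytes or fibroblasts in the differences between the lines was not tested. The difference in thyrocyte markers given above goes with line throughout.

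In the class II genes a single array stood apart. On FRT/TSHR 30 min replicate 1 all 4 probe sets of Cd74, the invariant chain, stood above all 17 other arrays, with 7.36, 6.95, 7.64 and 7.28, against highest values elsewhere of 6.46, 4.71, 5.83 and 5.70. Of RT1-Da, the alpha chain of a classical class II molecule, probe set 1 had 6.11 on this array, against at most 4.74 elsewhere. Of all probe sets tested, 4 exceeded every other array by more than 1 log2 unit on this array, 3 of Cd74 and 1 of RT1-Da; this limit was chosen after the values were seen, and other arrays had 0 to 6 such probe sets. RT1-Bb and the representative probe sets of RT1-Ba and RT1-Db1, also chains of classical class II, did not stand out there. Another RT1-Ba probe set had 6.81 on this array, against at most 6.53 elsewhere, and another of RT1-Db1 had 4.76, against at most 4.71. In all, 8 of 24 class II probe sets were above all 17 other arrays. Of 14 leukocyte marker probe sets 3 were above all other arrays, 0 of them by more than 1 unit, and the leukocyte sum of this group was 8.84 to 9.09. With this array the Cd74 difference at 30 min of TSH in FRT/TSHR was 0.48 ± 0.19 on the representative probe set and without it 0.17 ± 0.13. On the other 3 Cd74 probe sets it was 0.77, 0.93 and 0.73 with the array and -0.15, 0.22 and 0.13 without it. None of these passed.

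**Figure D4:**
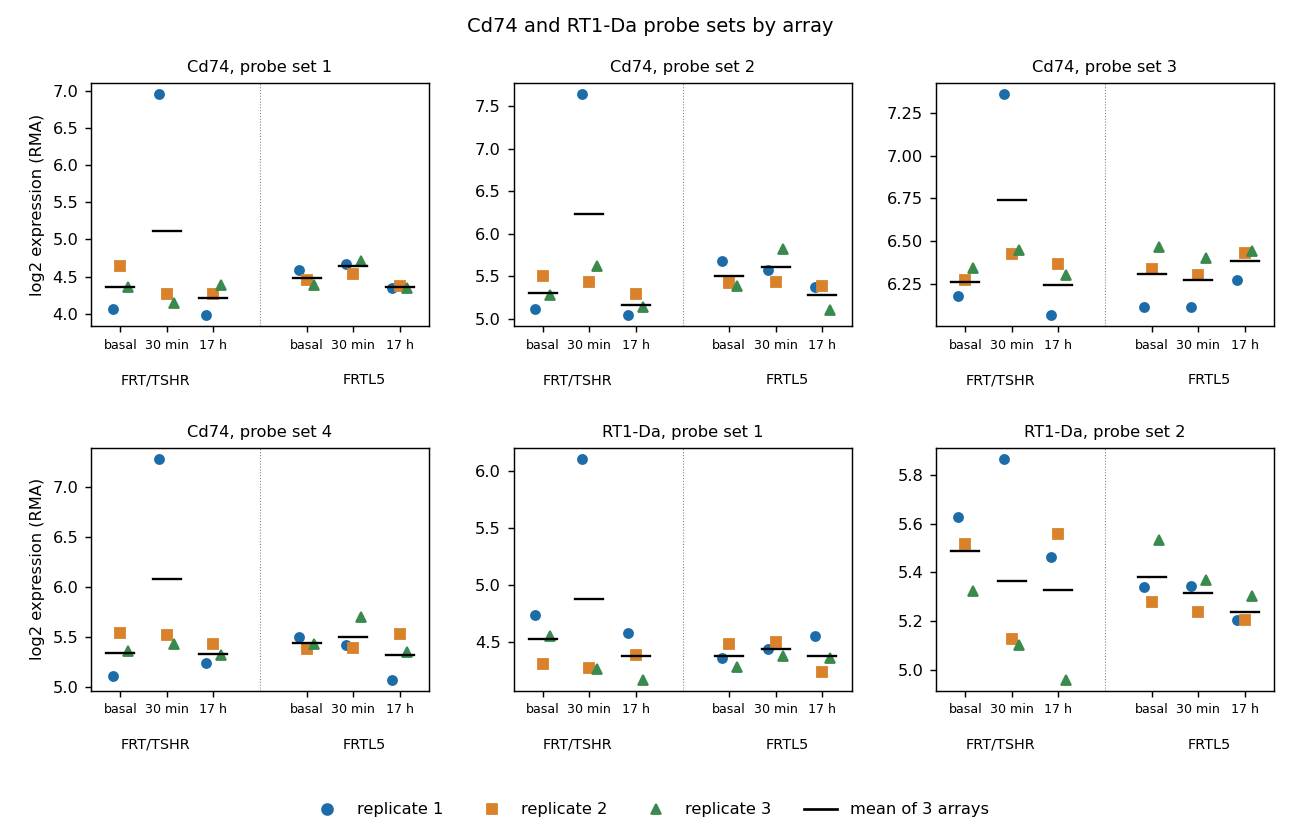
Log2 expression (RMA) of the 4 Cd74 and 2 RT1-Da probe sets on each of the 18 arrays; points are arrays, shaped and coloured by replicate number, bars are means of 3 arrays, and each panel has its own vertical range. Replicate 1 of FRT/TSHR at 30 min stands above the other 17 arrays in all 6 panels.

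Beyond the 43 genes, 3 pathway lists were counted. Of 27 measured genes of antigen processing and MHC transcription, 4 fell and 1 rose in FRTL5 at 17 h against basal, against 2.26% of all genes downward and 1.86% upward, with a median of 0.04. Rfx5, a subunit of the RFX complex that binds MHC promoters, fell by 0.89 (adjusted p = 0.016), Icam1, an adhesion molecule for T cells, fell by 0.86 (0.033), the lysosomal protease gene Ctsb fell by 0.73 (0.028), and Fcgrt, an Fc receptor that pairs with B2m, fell by 0.61 (0.019). Psmb5, a catalytic subunit of the standard proteasome, rose by 0.75 (0.028). Of 17 interferon signalling genes 1 fell, Ptpn1, a phosphatase that acts on Jak kinases (-0.57, limma, adjusted p = 0.045). Of 12 genes on a list of interferon-induced genes 0 passed (limma, 0 at an unadjusted p under 0.05, and 0 with the block). With the block 5 of the 27 antigen processing genes fell and 4 rose: Nfyb, a subunit of the NF-Y factor, joined those that fell, and the endoplasmic reticulum chaperone genes Hspa5, Calr and Canx joined Psmb5. Of the 17 signalling genes 2 then fell, Ptpn1 and Ghr. With the block 6.57% of all genes fell and 4.29% rose. In FRT/TSHR 0 genes of these lists passed at 17 h (limma; 2, 0 and 0 had an unadjusted p under 0.05, and 0 passed with the block).

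Between the basal lines 7 of the 27 antigen processing genes were lower in FRT/TSHR and 1 higher, against 13.8% of all genes lower and 14.8% higher. Icam1 was the lowest at -3.71, followed by Ctsl at -2.22 and Ctsb at -1.92, both lysosomal proteases; the proteasome activator genes Psme1 and Psme2 were at -0.99 and -0.46, Fcgrt at -0.86 and the class I-like gene Hfe at -0.37, and the chaperone gene Hspa5 was higher by 1.40. Of the 17 interferon signalling genes 5 were lower and 1 higher, 35.3% in all against 28.5% of all genes. Jak2 was higher in FRT/TSHR by 1.20, and Ptpn1 (-1.35), the receptor genes Il6st (-1.12) and Ghr (-0.88), and the negative regulators Pias3 (-0.71) and Socs2 (-0.37) were lower. Of the interferon-induced list 4 of 12 were higher and 2 lower in FRT/TSHR, against 14.8% of all genes higher and 13.8% lower. Those higher were the chemokine gene Cxcl10 by 2.92 (7.58-fold), the galectin gene Lgals9 by 1.31, the antiviral gene Rsad2 by 1.16 and the proteasome gene Psmb2 by 0.52. Whether the 12 genes of this list, Psmb2 among them, respond to interferon in these cells was not tested. The other 2 that passed, Lgals3bp (-1.36) and Casp1 (-0.82), were lower.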

How the data were processed

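The deposited table held log2 expression values for 8799 probe sets on 18 arrays, made by the authors with RMA (background correction, normalization and summary of probes), per the submitters' processing notes; RMA version and settings are not given in the sources used here. After 59 control probe sets were left out, 8740 were tested, dim ones included. Scanner files were not analysed here. Gene names came from the platform annotation; 7006 probe sets had 1 symbol, 308 several and 1426 none, and those with several named no gene. The means of the 6 groups were estimated from all arrays in 1 limma 3.58.1 model in R 4.3.3 (12 residual and 3.597 prior degrees of freedom). Two-sided p-values were adjusted by Benjamini-Hochberg over all 8740 in each of 9 comparisons and called under 0.05. Shares of all genes use the representative probe set of 4736 genes. Precision is limited by having 3 arrays a group. The script was tested on simulated data.

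The replicate numbers of the labels were checked as pairs. Within FRTL5 the deviations of same-numbered arrays correlated at 0.15 to 0.80 (median 0.41) and within FRT/TSHR at 0.16 to 0.62 (median 0.47). Arrays with different numbers correlated at -0.64 to 0.63 in FRTL5 (median -0.50) and at -0.41 to -0.03 in FRT/TSHR (median -0.21). In FRTL5 these ranges overlap, and the same-numbered correlations were highest for number 1 (0.69 to 0.80). Deviations from a group mean balance out within the group, so an outlying array number 1 alone makes the other arrays deviate together. The FRTL5 correlations are thus partly forced and do not by themselves show a pairing of the arrays with other numbers. All same-numbered values were above 0.1, and the blocked values are given where a call changed. The pairing comes from the data and not from a label. The named genes are all members called in a comparison, B2m, Irf7 and RT1-CE16, up to 4 members nearest the threshold and up to 8 called genes per list; members whose probe sets differ in a call are named. The members and lists were chosen with earlier results of these data known. Alternatives were the block, leaving out arrays, only the compared arrays, array weights, a signal filter, renewed quantile normalization, median centring, an intensity trend and the mean of a gene's probe sets.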

Additional observations from a re-analysis of the deposited data

Results flagged for a closer look

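RT1-CE12, a class I heavy chain gene, was singled out because its 17 h response to TSH differed between the lines by a direct test. The FRT/TSHR effect was 0.01 and the FRTL5 effect -0.67 (log2, 17 h minus basal), a difference of effects of 0.69 ± 0.15 (limma, adjusted p = 0.049). The RT1-CE12 arrays of FRTL5 at 17 h (10.20 to 10.62) all lay below those at basal (11.08 to 11.15), and in FRT/TSHR the 17 h arrays (10.06 to 10.15) lay within the basal range (9.94 to 10.20). Leaving out 1 array at a time ended the call in 11 of 12 fits, with the difference between 0.57 and 0.78 and the highest adjusted p 0.13, and in 7 of 10 other settings. Line, medium and TSH dose cannot be told apart in it, and its probe set can match related class I genes.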

How the results depend on the processing

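The counts of the 43 genes called depended on how replicate numbers and the FRTL5 arrays numbered 1 were treated. For 17 h against basal in FRTL5 (5 called), 10 passed with the replicate block within the line and 8 with array weights. With only the compared arrays 3 passed, B2m, RT1-DMb and RT1-M3-1, while RT1-A, RT1-CE12, RT1-CE16 and Irf7 lost their calls. Without the FRTL5 arrays numbered 1, 1 passed (RT1-CE12), and leaving out 1 array gave 4 to 5. For 17 h against 30 min in FRTL5 (7 called), 11 passed with array weights and 10 with the replicate block. Without the arrays numbered 1 of either line 3 passed (Ifnar1, RT1-M3-1 and RT1-S3), and without those of FRTL5 1 passed (Ifnar1). With only the compared arrays 2 passed (Ifitm3 and RT1-M3-1), and leaving out 1 array gave 0 to 5. For the 17 h effect between lines (1 called), 6 passed with the replicate block, 3 with array weights and 2 with the mean of a gene's probe sets. In that comparison 0 passed with only the compared arrays, the signal filter, median centring, the intensity trend, or without the arrays numbered 1 of FRTL5 or of both lines, and leaving out 1 array gave 0 to 1. Between the basal lines (16 called) the count stayed at 14 to 19; 19 passed with a replicate block shared by the lines, whose same-numbered arrays correlated at 0.35, 0.12 and -0.0025, so the lines share only a number. In the other 5 comparisons 0 passed with or without the block. Of 467 alternative values of called genes, 364 kept their side of the threshold, 103 did not and 0 reversed. The causes were not tested. Detection above background was not measured, and 3 arrays a group limit all of these.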
